A study of Mus musculus with 8 samples.

Results

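The AP-1 family genes Fos, Fosb, Fosl1, Fosl2, Jun, Junb, Jund, Atf3, Batf and Batf2 were examined in stem cell-enriched and mature bone marrow cells of adult mice. The 10 genes were taken by name, and all 10 were among the 24011 named genes measured. The study profiled 2 cell populations sorted from the marrow of adult C57Bl6 mice, with 4 arrays each and no genetic change or treatment named in the labels. Lin+ cells carry surface markers of the mature blood lineages and are therefore a mixture of cell types. The HSC-enriched cells are LSK cells (negative for lineage markers, positive for Sca-1 and Kit) without CD48, and are rich in haematopoietic stem cells (HSCs). The sample labels add CD105 to this gate, where the series text has CD150. No source used here gives the sex, the number of animals or any pooling, so each p-value reflects the spread among these arrays, part of which may be technical.

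AP-1 is a transcription factor made of pairs of basic leucine zipper (bZIP) proteins. The Jun proteins can pair among themselves or with a Fos protein, whereas Fos proteins need a partner. Atf3 and the Batf proteins use the same zipper to join or displace these partners, and Batf pairs can bind DNA together with the interferon regulatory factors Irf4 and Irf8. Fos, Fosb, Jun, Junb and Atf3 are immediate-early or stress genes, whose RNA rises within minutes of a stimulus, including the handling of cells, and falls again quickly. In the blood system AP-1 proteins are known for roles in myeloid differentiation and in activated lymphocytes.

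The sequence upstream of a gene holds sites through which such stimuli act, and it is shown for Fos, Fosb, Jun, Atf3 and Batf. RefSeq (GRCm38.p6) gave an upstream window for 8 of the 10 members, all but Fosl1 and Batf2. The windows of Junb, Jund and Fosl2 were searched but are not printed. The 120 bases before the annotated start are printed from 5′ to 3′ on the gene's own strand. Capitals mark TGACG, the core of the site bound by CREB and ATF proteins (reverse strand in Atf3), or TGACNTCA, an 8-base AP-1 and CREB type site.

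Fos, chr12:85473770-85473889, plus strand: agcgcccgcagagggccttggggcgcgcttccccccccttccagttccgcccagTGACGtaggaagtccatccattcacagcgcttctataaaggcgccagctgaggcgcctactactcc
Fosb, chr7:19310046-19310165, minus strand: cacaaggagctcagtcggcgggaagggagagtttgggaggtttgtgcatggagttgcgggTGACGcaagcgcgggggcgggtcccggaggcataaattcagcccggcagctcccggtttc
Jun, chr4:95052223-95052342, minus strand: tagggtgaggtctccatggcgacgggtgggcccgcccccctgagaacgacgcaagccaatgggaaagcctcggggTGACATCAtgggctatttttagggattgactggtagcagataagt
Atf3, chr1:191183334-191183453, minus strand: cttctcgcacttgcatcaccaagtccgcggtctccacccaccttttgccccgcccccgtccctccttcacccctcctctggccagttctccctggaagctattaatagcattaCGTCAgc
Batf, chr12:85686600-85686719, plus strand: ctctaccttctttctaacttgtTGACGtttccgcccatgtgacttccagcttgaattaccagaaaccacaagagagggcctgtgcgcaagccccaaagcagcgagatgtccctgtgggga

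Over the 250 bases before the start, searched on both strands, TGACG was present in Fos, Fosb, Junb, Atf3 and Batf. That is 5 of 8 member windows, against 17.8% of all 32851 windows in the table. TGACG and TGACNTCA were added to the search after the windows had been read, so their counts in members are a description only. The share of G and C bases ran from 46.4% (Batf) to 68.8% (Fosb) in member windows, and the median of all windows was 52.4%. Only Jund and Batf lay under that median. TGACNTCA was found in the Jun window only among the members, there as TGACATCA. TGACNTCA with any base at N was in 7.49% of all windows. The classical AP-1 site TGANTCA was in 0 of 8 member windows and 6.75% of all windows, TGACGTCA in 0 of 8 and 1.55%, and the CArG box, the site of serum response factor, in 0 of 8 and 1.47%. The motifs overlap, since TGACGTCA contains TGACG and is one form of TGACNTCA. TATAAA was in the Fos window and in 12.4% of all windows, and GGGCGG in 6 of 8 and 32.7%. These matches describe letters in short windows and say nothing about binding, or about sites farther upstream, which were not searched.

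Values are log2 levels of 1 probe set per gene, so levels are compared between arrays for the same gene and never between genes. Differences are HSC-enriched minus Lin+ and were tested with limma over all 24011 genes. Every member value on every array, the lowest being 5.62, lay above 5.11, the 95th percentile of 1091 olfactory receptor genes used as a guide to background. The sort itself was visible in marker genes. All 11 measured HSC markers were higher in HSC-enriched cells, and their mean level was 9.13 to 9.22 there against 5.65 to 5.80 on Lin+ arrays. Ly6a, which encodes Sca-1, was not analysed here. Neutrophil markers were uneven among HSC-enriched arrays: their mean was 6.83, 6.80, 9.25 and 9.04 in replicate order, compared with 11.44 to 11.74 in Lin+ cells. In such bulk samples, fewer cells of a type and less RNA per cell cannot be told apart.

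Of the 10 members, Batf2, Fosb, Jun and Batf were higher in HSC-enriched cells and none was lower at an adjusted p under 0.05. Over all genes 15.5% were called higher and 12.4% lower. At an unadjusted p under 0.05 the limma counts were the same, 4 higher and 0 lower. The same 4 members had all HSC-enriched arrays above all Lin+ arrays, a pattern seen for 15.9% of all genes. The median difference of the members was 0.56, against 0.02 for all genes, and fell to 0.25 without Lin+ replicate 4. Among the uncalled members, Fos, Atf3, Jund, Fosl2 and Junb had a higher mean in HSC-enriched cells and Fosl1 a lower one.

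**Figure D1:**
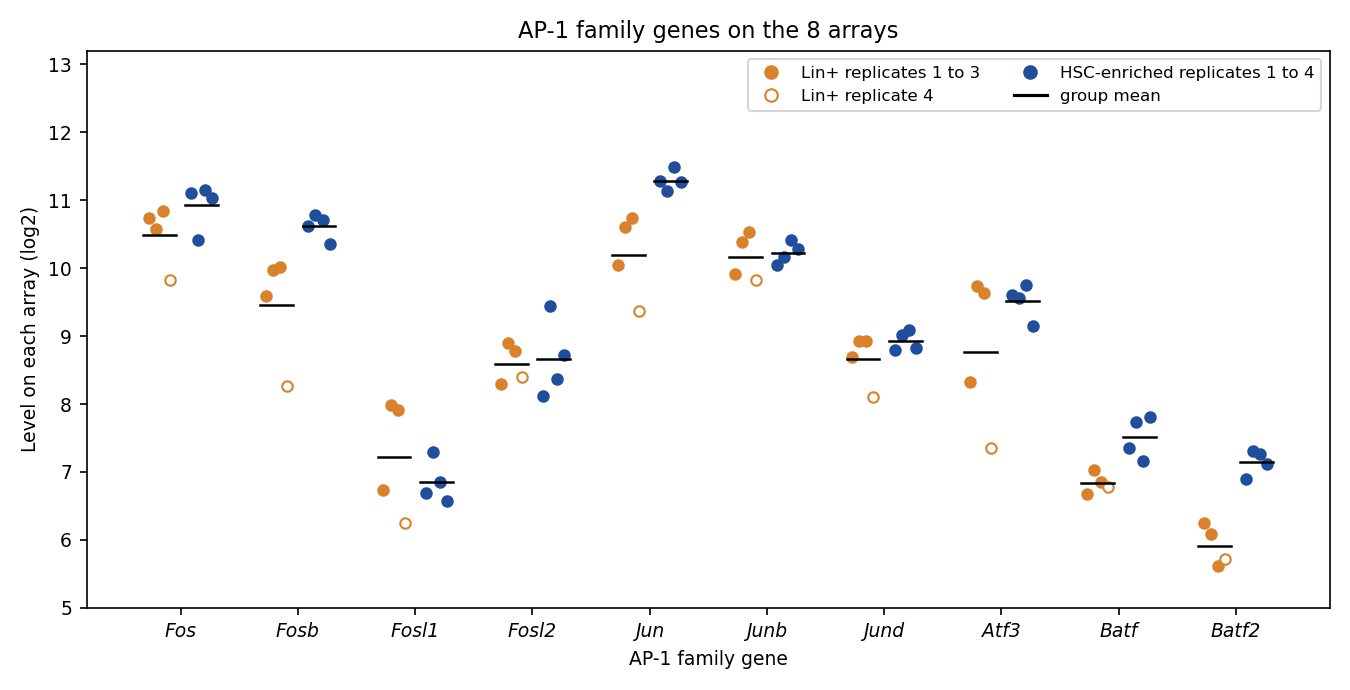
Level of each AP-1 family gene (log2, vertical axis) on 4 Lin+ arrays (orange) and 4 HSC-enriched arrays (blue), with group means as black bars and Lin+ replicate 4 as an open circle. Fosb, Jun, Batf and Batf2 have no overlap between the groups, and Lin+ replicate 4 is the lowest Lin+ array for 7 of the 10 genes. Heights of different genes are not comparable.

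Fosb was the only Fos gene called at an adjusted p under 0.05, though its 95% interval (0.41 to 1.90) overlapped that of Fos. Its protein is a partner of Jun proteins that is induced like Fos. Fosb was at 10.61, 10.79, 10.71 and 10.35 on HSC-enriched replicates 1 to 4 and at 9.60, 9.97, 10.01 and 8.26 on Lin+ replicates 1 to 4. All HSC-enriched arrays were above all Lin+ arrays, and Lin+ replicate 4 lay far below the other 3. The difference was 1.16 ± 0.34 (SE), or 2.23-fold (adjusted p = 0.026). Without Lin+ replicate 4 it was 0.76 (adjusted p = 0.0052). The call was lost without HSC-enriched replicate 1, 2 or 3, at adjusted p = 0.056, 0.067 and 0.059, with differences of 1.16, 1.10 and 1.13. Leaving out both HSC-enriched replicates 3 and 4 gave a difference of 1.24 (adjusted p = 0.082), and a null of a 1.2-fold change gave adjusted p = 0.069, also uncalled.

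Fos itself was less clearly separated. It was at 11.11, 10.42, 11.15 and 11.03 on HSC-enriched arrays and at 10.74, 10.58, 10.84 and 9.82 on Lin+ arrays. HSC-enriched replicate 2 lay below every Lin+ array but replicate 4, so the groups overlapped. The difference was 0.43, with a 95% interval of -0.10 to 0.96 (adjusted p = 0.24). A rise of nearly 2-fold or no rise at all both lie within that interval.

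The Fos-related antigens Fosl1 and Fosl2, which bind with Jun but lack the strong activating end of Fos, did not pass and overlapped between the groups. Fosl1 was at 6.70, 7.29, 6.86 and 6.57 on HSC-enriched arrays and at 6.73, 7.99, 7.92 and 6.25 on Lin+ arrays. Lin+ replicates 2 and 3 were its highest arrays and Lin+ replicate 4 its lowest. The difference of -0.37 had an interval of -1.18 to 0.45 (adjusted p = 0.55), and without Lin+ replicate 4 it was -0.69 (adjusted p = 0.15). Fosl2 was at 8.12, 9.45, 8.37 and 8.72 on HSC-enriched arrays and at 8.29, 8.90, 8.79 and 8.39 on Lin+ arrays. HSC-enriched replicate 2 held the highest value and HSC-enriched replicate 1 the lowest. Its difference was 0.07, with an interval of -0.52 to 0.66 (adjusted p = 0.90), and it was -0.19 without HSC-enriched replicate 2.

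Among the Jun genes, which supply the obligate partners of AP-1, Jun was higher in HSC-enriched cells. Jun was at 11.28, 11.13, 11.49 and 11.26 on HSC-enriched arrays and at 10.05, 10.61, 10.74 and 9.36 on Lin+ arrays. The HSC-enriched values were tightly grouped and all above the highest Lin+ array, whereas Lin+ arrays ran over 1.38 log2 units with replicate 4 the lowest. The difference was 1.10 ± 0.26 (SE), or 2.14-fold (adjusted p = 0.0097). It was 0.82 without Lin+ replicate 4 (adjusted p = 0.0074). Of the 18 alternative settings, only leaving out both HSC-enriched replicates 3 and 4 ended its call (1.01, adjusted p = 0.072).

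Junb, which often opposes Jun in growth control, overlapped between the groups. It was at 10.05, 10.16, 10.41 and 10.28 on HSC-enriched arrays and at 9.91, 10.39, 10.52 and 9.82 on Lin+ arrays, so the HSC-enriched arrays lay inside the Lin+ range. Its difference was 0.06, with an interval of -0.31 to 0.44 (adjusted p = 0.85). Jund, the Jun gene usually expressed without a stimulus, was at 8.79, 9.01, 9.09 and 8.82 on HSC-enriched arrays and at 8.69, 8.93, 8.92 and 8.10 on Lin+ arrays. Its difference was 0.27, with an interval of -0.14 to 0.67 (adjusted p = 0.35), and 0.08 without Lin+ replicate 4. For both genes the interval leaves out a 2-fold difference in either direction.

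Atf3, a stress-induced member that can repress as a pair with itself, had the widest spread of the 10 on Lin+ arrays. It was at 9.60, 9.56, 9.75 and 9.15 on HSC-enriched arrays and at 8.32, 9.73, 9.64 and 7.35 on Lin+ arrays. Lin+ replicates 2 and 3 stood level with the HSC-enriched arrays, and Lin+ replicates 1 and 4 stood below them. The difference of 0.76 had an interval of -0.27 to 1.78 (adjusted p = 0.29) and was 0.29 without Lin+ replicate 4.

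**Figure D2:**
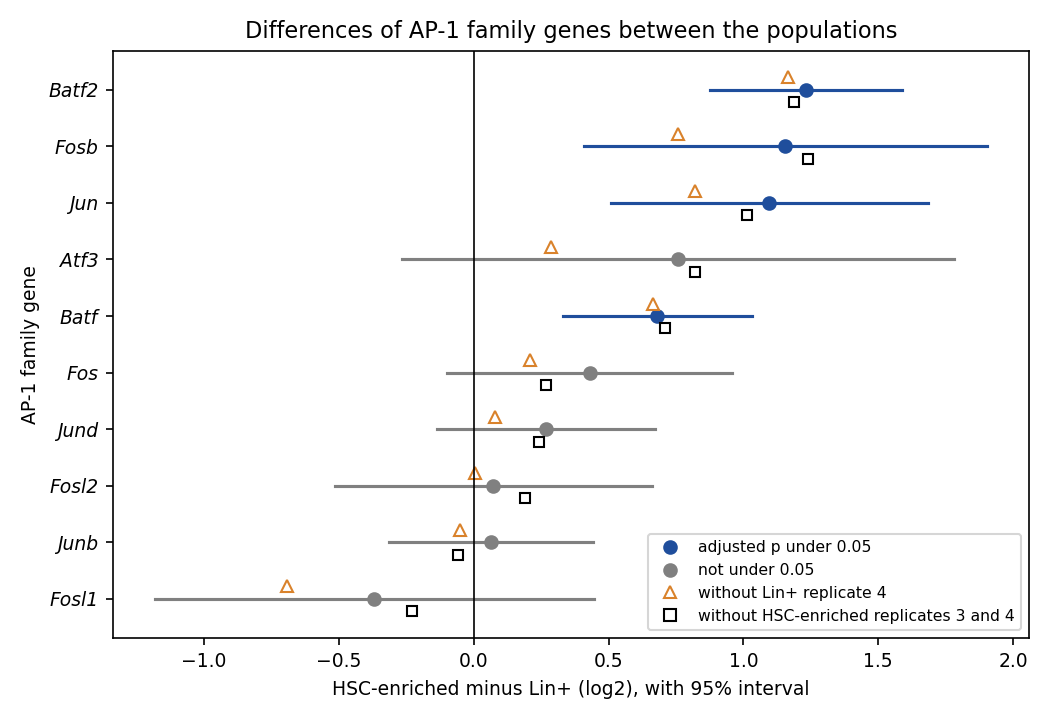
Difference between HSC-enriched and Lin+ cells (log2, horizontal axis) for each AP-1 family gene with its 95% interval from limma, blue where the adjusted p was under 0.05 and grey otherwise. Triangles give the difference without Lin+ replicate 4, which is smaller for Fosb (0.76) and Atf3 (0.29), and squares that without HSC-enriched replicates 3 and 4. Batf2 and Batf change little under either.

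The Batf genes among the members, whose proteins hold a bZIP domain, were both called higher. Batf2, known as an interferon-induced gene of myeloid cells, was at 6.90, 7.31, 7.26 and 7.11 on HSC-enriched arrays. It was at 6.25, 6.08, 5.62 and 5.72 on Lin+ arrays. The groups did not overlap, and the lowest HSC-enriched array stood well above the highest Lin+ array. The difference was 1.23 ± 0.16 (SE), or 2.35-fold (adjusted p = 0.00021), and it ranged from 1.13 to 1.34 over 18 alternative settings, all of which kept its call.

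Batf, best known from T and B lymphocytes, was at 7.35, 7.74, 7.16 and 7.81 on HSC-enriched arrays and at 6.68, 7.02, 6.85 and 6.79 on Lin+ arrays. The HSC-enriched arrays were the more spread, yet their lowest value was above every Lin+ array. The difference was 0.68 ± 0.16 (SE), or 1.60-fold (adjusted p = 0.0079). The call was lost against a null of a 1.2-fold change (adjusted p = 0.066). Lymphoid markers went the other way from Batf. T and NK cell markers, of which 9 of 9 measured were lower, had a mean level of 4.52 to 4.94 on HSC-enriched arrays against 7.68 to 7.96 on Lin+ arrays. B cell markers, of which 8 of 8 were lower, had a mean of 4.72 to 6.19, against 9.35 or more on every Lin+ array. HSC-enriched replicate 3 held the highest B cell mean of its group and the lowest Batf value. That array also held the highest mean of its group for the other mature cell marker lists, except megakaryocyte genes. The part of cell makeup in the Batf difference was not tested.

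Several members spread widely within the Lin+ group. The SD on Lin+ arrays was 1.14 for Atf3, 0.87 for Fosl1, 0.82 for Fosb and 0.63 for Jun (n = 4). Of all genes, 99.8%, 99.4%, 99.2% and 98.1% had a smaller SD there. For Batf the SD was 0.14, and 33.1% of genes had a smaller one, whereas for Batf2 it was 0.30, with 80.5% smaller. On HSC-enriched arrays the SD was 0.26 for Atf3, 0.31 for Fosl1, 0.19 for Fosb and 0.15 for Jun. In all, 8 of the 10 members had the larger SD on Lin+ arrays, as did 51.0% of all genes, and the exceptions were Fosl2 and Batf.

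Lin+ replicate 4 was often the array farthest down. It was the lowest Lin+ array for 7 of the 10 members, namely Fos, Fosb, Fosl1, Jun, Junb, Jund and Atf3, and for 24.6% of all genes. It lay below the mean of the other Lin+ arrays by 1.88 for Atf3, 1.60 for Fosb, 1.29 for Fosl1, 1.11 for Jun, 0.90 for Fos, 0.75 for Jund and 0.45 for Junb. The 25 other immediate-early and stress genes, a list that holds no member, showed the same array low: 22 of them were lowest there among Lin+ arrays. Their mean level was 8.37, 8.75, 8.73 and 7.78 on Lin+ replicates 1 to 4. On HSC-enriched replicates 1 to 4 it was 9.01, 9.15, 9.03 and 8.83, so replicate 4 was the lowest there too. HSC-enriched replicate 4 was also the lowest of its group for Fosb (10.35), Atf3 (9.15) and Fosl1 (6.57), but not for the other members. The marker means of Lin+ replicate 4 lay inside the range of the other Lin+ arrays for neutrophil (11.62), B cell (9.52), monocyte and macrophage (9.14), erythroid (8.92) and eosinophil, basophil and mast cell genes (7.69). They were the lowest of the group for plasma cell (7.35 against 7.68 to 7.86), T and NK cell (7.68 against 7.83 to 7.96) and dendritic cell genes (7.35 against 7.36 to 7.44), and the highest for megakaryocyte genes (6.56 against 5.79 to 6.26). The part of cell makeup and of sample handling in the low values of this array was not tested.

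**Figure D3:**
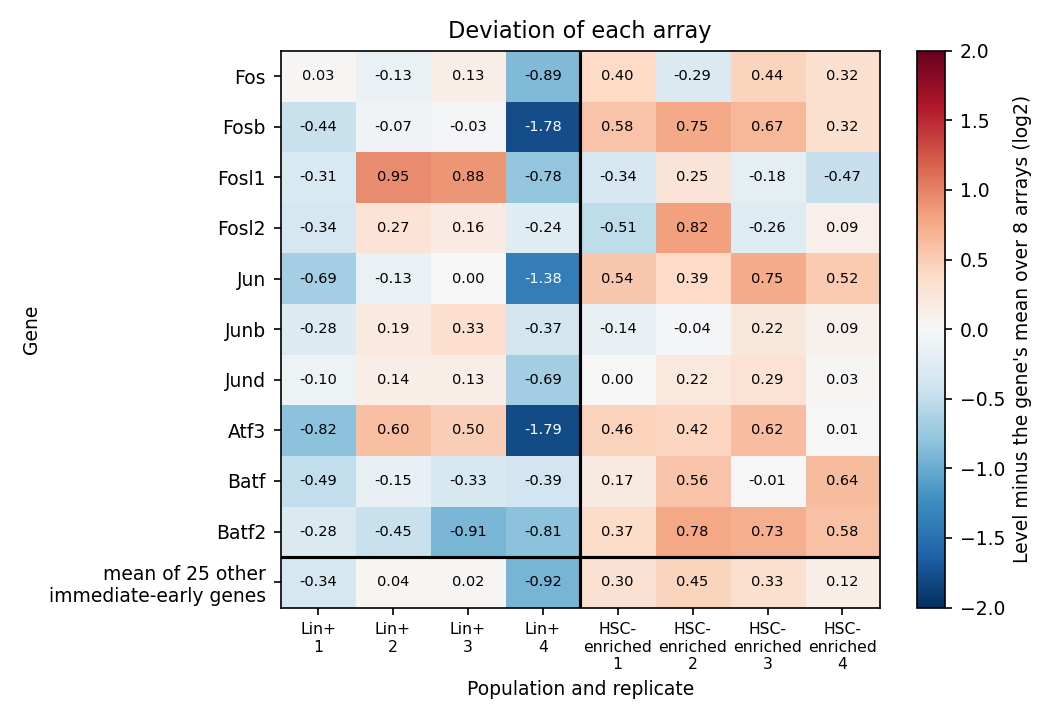
Each cell gives an array's level minus that gene's mean over the 8 arrays (log2), red above and blue below, for the AP-1 family genes and, in the bottom row, the mean of 25 other immediate-early and stress genes. Lin+ replicate 4 is low for Atf3 (-1.79), Fosb (-1.78) and Jun (-1.38) and for the bottom row (-0.92).

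Genes with a profile like a member's were ranked by the root mean square distance between centred log2 values over the 8 arrays, among 5621 genes with a range of at least 1. As a description, Jun was the nearest gene to Fosb (distance 0.22), followed by Snhg12 (0.27) and the clock gene Per1 (0.30). Nearest to Jun were Ppp1r15a (0.16), a gene of the integrated stress response, St6galnac6 (0.19) and Klf6 (0.20). Atf3 had Fosb (0.37), Ccrl2 (0.38) and Jun (0.39) as its nearest genes. Fosl1 was nearest to Plk3 (0.20), and its list went on with Pcdha12 (0.28) and Tnfaip3 (0.30), an NF-kB target. Batf had Jmjd6 (0.09), Dnajc1 (0.12) and Nexn (0.13), and Batf2 had Grik5 (0.11), Utp14b (0.12) and Phc1 (0.13). Fos lay nearest to Slc39a1 (0.15), Rmnd1 (0.15) and Rhob (0.18), and Fosl2 to Usp2 (0.17), Rabgef1 (0.19) and Cd28 (0.20). Junb and Jund, whose range was under 1, were not compared. Of the other 8 members, only Jun and Fosb appeared among the 3 nearest genes of another member, Jun for Fosb and Atf3, and Fosb for Atf3. All these profiles share the same 8 arrays and their processing.

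Of the closest relatives outside the 10 genes, Jdp2 fell and Batf3 did not pass. Jdp2, which pairs with Jun and represses AP-1 sites, is the only protein-coding gene between Fos and Batf on chromosome 12 in the RefSeq annotation. It was at 6.97, 7.04, 6.88 and 6.90 on HSC-enriched arrays and at 7.18, 7.34, 7.62 and 7.43 on Lin+ arrays, with no overlap. Jdp2 fell by 0.44 ± 0.11 (SE, adjusted p = 0.015), between neighbours of which Batf rose and Fos did not pass. Leaving out both HSC-enriched replicates 3 and 4 ended its call (-0.38, adjusted p = 0.12), as did a null of a 1.2-fold change (adjusted p = 0.30). Batf3, the third Batf gene, had a mean of 4.82 ± 0.22 in HSC-enriched and 4.86 ± 0.43 in Lin+ cells (SD, n = 4), both below the background guide of 5.11 (difference -0.04, adjusted p = 0.93).

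The list of bZIP partners and relatives had 17 measured genes: 3 rose, 4 fell and 10 stayed uncalled. Its median difference was -0.03. Maff, a small Maf protein gene that is also stress-induced, rose 2.48-fold, from 6.53 ± 0.26 to 7.84 ± 0.38 (SD, n = 4, adjusted p = 0.00057). Nfe2l1 rose by 0.39 (adjusted p = 0.020) and Atf4, the main factor of the integrated stress response, by 0.38 (adjusted p = 0.047). Atf4 lost its call in 11 of 18 alternative settings and Nfe2l1 in 5. Bach2, a repressor known from B cells and T cells, fell 4.72-fold, from 8.07 ± 0.33 to 5.84 ± 0.32 (adjusted p = 1.4e-05). Maf fell 1.77-fold (adjusted p = 0.0049) and Nfe2l2, the oxidative stress factor, by 0.38 (adjusted p = 0.024). Atf2 and Atf7, which pair with Jun, did not pass, at 0.25 and 0.29 (adjusted p = 0.087 and 0.17).

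Genes that act upstream of Fos and Jun were mixed. Jun proteins are activated by JNK kinases, and Fos transcription by serum response factor with its ternary complex partners. The 22 genes measured split into 7 that rose, 7 that fell and 8 uncalled, and their median difference was -0.01. Mapk8 and Mapk9, which encode JNK kinases, rose 1.80-fold and 1.49-fold (adjusted p = 0.0010 and 0.0019). Of the kinase genes further upstream, Map3k1 fell 3.82-fold, Map3k5 fell 2.19-fold and Map2k4 fell 1.58-fold (adjusted p = 9.1e-05, 5.7e-05 and 0.030). Map2k6, which acts mainly on p38 kinases, rose by 0.71 (adjusted p = 0.024), and Map2k7, another JNK kinase kinase gene, was not analysed here. Among serum response genes, Elk3 rose 1.96-fold and the cofactor gene Mrtfb 1.70-fold (adjusted p = 0.00033 and 0.00077), while the cofactor gene Mrtfa fell 2.20-fold (adjusted p = 0.00063). Srf, Elk1 and Elk4 did not pass, with differences of -0.01, -0.05 and 0.02. Map2k3 (0.18) and Rps6ka3 (0.02) did not pass either.

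Genes with known AP-1 sites were mostly lower in HSC-enriched cells. Among the 22 measured, 12 fell, 2 rose and 8 were uncalled, around a median difference of -0.84. In 14 of the 22 the mean lay above the background guide. Mmp9, a gelatinase gene abundant in neutrophils, was at 5.58, 5.32, 7.03 and 7.87 on HSC-enriched arrays and at 10.76, 10.88, 11.03 and 10.96 on Lin+ arrays. It was 22.0-fold lower (adjusted p = 5.4e-05), and its higher HSC-enriched values were on replicates 3 and 4, the arrays with the higher neutrophil marker means of 9.25 and 9.04. The part of neutrophil transcripts in this difference was not tested. Hmox1, haem oxygenase, was 11.3-fold lower and the metallothionein gene Mt2 5.47-fold lower (adjusted p = 2.2e-06 and 0.0011). Tnf and Ccl2, which encode inflammatory signals, and Plau, urokinase, were 3.82-fold, 4.85-fold and 5.27-fold lower (adjusted p = 5.9e-06, 0.0018 and 8.7e-05). Nqo1, a detoxifying enzyme gene, and Ccnd1, cyclin D1, rose 1.74-fold and 1.54-fold (adjusted p = 0.014 and 0.0045). Gclc (-0.35) and Lmna (0.28) did not pass. Beside these genes, 12 of 13 neutrophil and 8 of 8 monocyte and macrophage markers fell, and their part in this list's count was not tested.

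The other immediate-early and stress genes had more members that rose than fell. All 25 were measured: 12 rose, 3 fell and 10 were uncalled. Their median difference was 0.80, against 0.02 for all genes. The nuclear receptor genes Nr4a2 and Nr4a1 and the zinc finger gene Egr1 were 9.64-fold, 7.98-fold and 4.04-fold higher (adjusted p = 4.1e-05, 0.00021 and 0.00097). Gadd45g, Btg2 and Ier5 fell 2.92-fold, 1.56-fold and 1.43-fold, and Ier5 lost its call in 5 of 18 alternative settings. Zfp36 (0.32) and Dusp1 (-0.30) did not pass. Lin+ replicate 4 was the lowest Lin+ array for 22 of the 25, and without it 10 rose and 5 fell in place of 12 and 3.

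Irf4 and Irf8, which bind DNA with Batf, were lower in HSC-enriched cells, while Batf itself was higher. Irf4 was at 5.46, 5.14, 5.05 and 4.48 on HSC-enriched arrays and at 9.22, 8.95, 9.02 and 8.31 on Lin+ arrays, 14.4-fold lower (adjusted p = 1.5e-06). Irf8 was at 5.40, 5.29, 6.02 and 5.04 on HSC-enriched arrays and at 9.15, 9.20, 8.88 and 9.16 on Lin+ arrays, 12.6-fold lower (adjusted p = 6.2e-07). The HSC-enriched mean of Irf4, 5.03, lay under the background guide of 5.11, so that its fold rests on values near background. The 12 Batf partners and lymphoid factors comprised 8 that fell, 2 that rose and 2 uncalled genes, and their median difference was -1.56. The lower B cell and T cell marker levels given above moved with this list, and their part in it was not tested. Spib, which is also in the B cell marker list, and Ikzf3 fell by 5.84 and 3.75, both to HSC-enriched means under the guide. Nfatc2 rose 1.96-fold (adjusted p = 0.0014) and Runx3 1.33-fold (adjusted p = 0.033), the latter losing its call in 8 of 18 alternative settings. Nfatc3 (0.01) and Prdm1 (-0.42) did not pass.

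**Figure D4:**
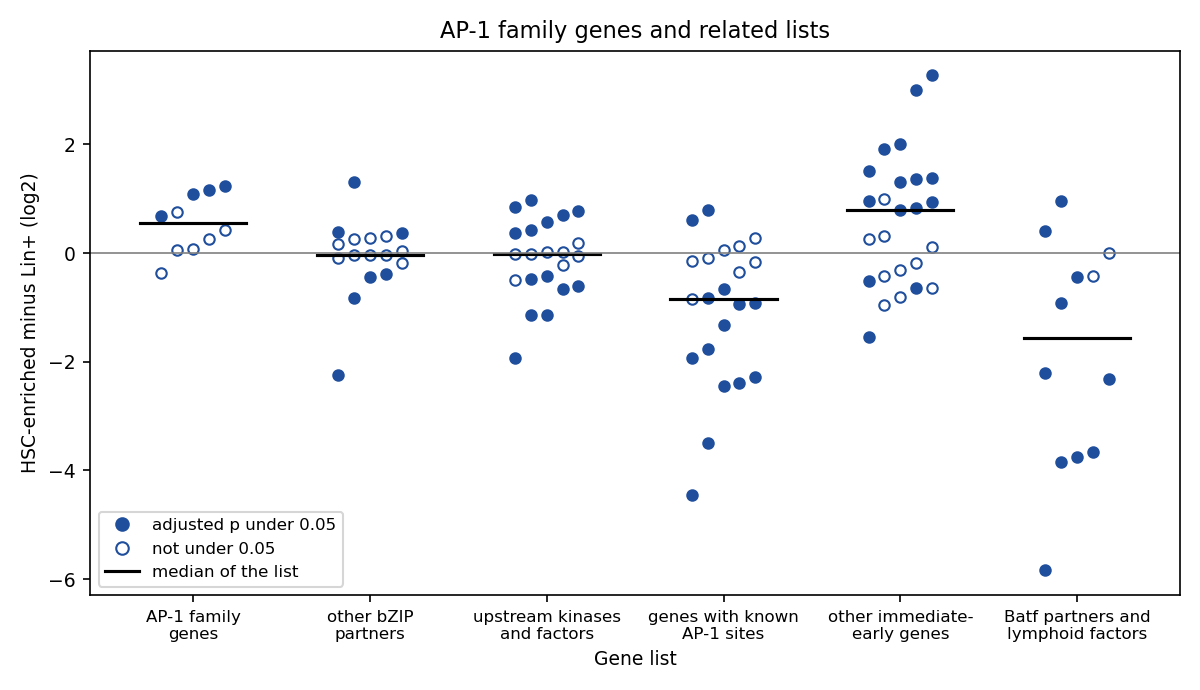
Difference between HSC-enriched and Lin+ cells (log2, vertical axis) of every measured gene in the AP-1 family and in 5 related lists, filled where the adjusted p was under 0.05, with the list's median as a bar. The medians are 0.56 for the AP-1 family, -0.03 for other bZIP partners, -0.01 for upstream genes, -0.84 for genes with known AP-1 sites, 0.80 for other immediate-early genes and -1.56 for Batf partners and lymphoid factors.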

How the data were processed

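Each of the 8 sorted samples was measured on a MouseGene ST array (Affymetrix, 1 colour) after amplification of a few nanograms of RNA, as the labels' protocols state. They name 2 array versions but not the version of each sample. The values the authors deposited are log2 levels (1.66 to 13.1); RMA and Partek are named per the submitters' processing notes. No source used here gives a genome build or detection calls.

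Of 24973 probe sets, 24015 had 1 symbol, 0 several and 958 none. Symbols were updated by Entrez gene ID through RefSeq, for 23922 of them, and the brightest probe set of a symbol was kept (4 left out). The 2 groups of 4 arrays were compared with limma 3.58.1 (lmFit, eBayes, R 4.3.3, no covariates), two-sided, with Benjamini-Hochberg adjustment over all 24011 genes, a threshold of 0.05 and no filter on low values. The fit was tested on simulated data with each gene's own spread and 200 changed genes. It recovered 74% of 2-fold and 96% of 4-fold changes and called 13 unchanged genes.

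The members and lists were chosen with earlier results of these data known. Named genes are all members, up to 3 genes of each list with the largest called rise, 3 with the largest called fall and 2 uncalled with the highest mean, with Batf3, Jdp2, Irf4 and Irf8, and the 3 nearest profiles of each member with a range of at least 1, leaving out unnamed loci, small RNAs and receptor gene families. Genes named beyond that rule (Mapk9, Map2k4, Map2k6, Srf, Elk1, Elk4, Nfe2l2, Tnf, Ccl2 and Plau) were chosen after their values were seen, and neither they nor the nearest profiles were recomputed under the alternatives. The TGACG and TGACNTCA searches were added after the promoter windows were read. Alternatives were array centring, quantile normalization, 2 filters on low values, the mean of probe sets, eBayes with trend and robust options, weights for the arrays, a replicate block, a 1.2-fold null, each array left out, and HSC-enriched replicates 3 and 4 left out together. Within groups, arrays correlated at 0.978 to 0.986, and no batch is given. Figures used matplotlib 3.10.9 (Python 3.11.15).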

Additional observations from a re-analysis of the deposited data

Results flagged for a closer look

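Among 132 groups of 4 arrays checked for a single array far from the rest, over the named genes and list means, 6 were flagged, and chance flags about 1 in 20. Fos was low on HSC-enriched replicate 2, at 10.42 against 11.03 to 11.15 on the other 3. On the same array Nr4a1 was high, at 12.38 against 11.86 to 11.91, and Gadd45g low, at 4.92 against 5.49 to 5.56. Irf8 was low on Lin+ replicate 3, at 8.88 against 9.15 to 9.20. The means of the B cell and plasma cell markers were high on HSC-enriched replicate 3, at 6.19 against 4.72 to 4.89 and 5.77 against 5.42 to 5.46. Lin+ replicate 4 did not pass this check for any AP-1 family gene.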

How the results depend on the processing

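Of 252 counts recomputed over 18 alternatives, 232 stayed within 1.5 times the reported count. Against a 1.2-fold null, 2 members (Batf2 and Jun) were called higher, and the count of all genes higher in HSC-enriched cells was 2141. In the lists, that null gave 1 higher and 2 lower bZIP partners and 4 higher and 4 lower upstream genes. It also gave 0 higher genes with AP-1 sites and 1 lower immediate-early gene. Among the Batf partners and lymphoid factors it left 1 gene higher, Nfatc2. Without HSC-enriched replicates 3 and 4 together, 2 members (Batf2 and Batf) and, in that last list, only Nfatc2 were higher. Array centring also left only Nfatc2 higher in that list. With the replicate block, 4 members stayed higher and 0 lower, and 1 bZIP partner was higher. The sample labels do not say whether same-numbered samples are paired. Across all genes, deviations of same-numbered arrays from their group means correlated at -0.15, 0.06, 0.03 and -0.10. This cannot exclude a pairing that shows in some genes only. With the block, the SE fell from 0.34 to 0.23 for Fosb and from 0.46 to 0.32 for Atf3. It fell for every member but Batf2, where it rose from 0.16 to 0.17. Leaving out 1 array at a time gave 3 to 4 members higher and 0 lower. In the lists it gave 1 to 3 bZIP partners higher (1 without HSC-enriched replicate 2) and 2 to 5 immediate-early genes lower. The list of Batf partners and lymphoid factors had 1 to 2 genes higher. The lower count (Nfatc2) came without HSC-enriched replicate 2 or 3 or Lin+ replicate 1, 3 or 4. The cause of these moves was not tested. None of the 10 members or the 40 other genes recomputed reversed while called, and Batf3 had no value with the filter at the median. Of those 40, 28 kept their side of the threshold throughout, 8 lost a call and 4 gained one in some setting. With 4 arrays per group, differences in variable genes such as Atf3 and Fosl1 are poorly resolved. Their 95% intervals, -0.27 to 1.78 and -1.18 to 0.45, reach past a 2-fold difference.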
